A study of Mus musculus with 4 samples.

Results

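The genes described here encode the class II molecules of the mouse major histocompatibility complex and the invariant chain that travels with them. They were chosen by name: a probe belonged to the set if the platform annotation gave it a single gene symbol and that symbol was H2-Aa, H2-Ab1, H2-Ea, H2-Eb1, H2-Oa, H2-Ob, H2-DMa or Cd74. All 8 genes were found, each with 1 probe, among 13840 genes with a probe of their own on the array and 33012 probes in all. Of the 8 probes, 6 had a value on all 4 arrays, H2-Ea had a value on 2 arrays, and H2-Oa was blank on every array. The set was put together with the difference between the strains already known, so the members' differences between the strains are given as descriptions. The fit across all probes included them, but no p-value is given for a member, and its calls are printed once, beside the share called over all probes, and support nothing.

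Gene expression was measured in whole stomach RNA on single-colour microarrays. The congenic strain was B6.CAST-17, homozygous and, by its name, carrying chromosome 17 material of CAST origin on a C57BL/6J background; the extent of that material is not given in the sources used here. C57BL/6J mice without that material, an inbred laboratory strain, were the wild-type controls. All animals of both strains were chow-fed males whose food was withdrawn 4 h before tissue collection; no age is given in the labels. Each strain was represented by 2 pools, each of equal amounts of RNA from 3 animals, so 6 animals per strain stand behind 4 arrays. The labels call the pools biological replicates, and SDs measure the spread between pools, not between single mice. SEs and p-values are limma's, which combine a probe's own spread with that of probes of like signal. An SE can therefore lie above or below what the probe's pools alone would give. It lies below for H2-Ob, H2-Ab1, H2-DMa and H2-Eb1, and above for H2-Aa and Cd74. Values are the deposited signals, read here as log2, and differences are congenic minus wild type on that scale with n = 2 pools per strain. Of all probes, 13475 were read on every array, and across these pools of one strain correlated at 0.991 (congenic) and 0.988 (wild type, Pearson's r; probes are not independent replicates).

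Class II molecules are pairs of an alpha and a beta chain that carry peptides from internalised proteins to the surface of dendritic cells, macrophages and B cells, where CD4 T cells read them. H2-Aa and H2-Ab1 form the A molecule, and H2-Ea and H2-Eb1 form the E molecule. The invariant chain, encoded by Cd74 outside the complex, fills the groove of new class II molecules and guides them to endosomes, where H2-DM helps to exchange its remnant for peptide and H2-O, made mainly in B cells, restrains H2-DM. Mice of the b haplotype, to which C57BL/6 belongs, are known to carry a deletion in the H2-Ea promoter and to make no E molecule, and the RefSeq annotation of the C57BL/6J genome lists H2-Ea as a transcribed pseudogene. In the gut, class II molecules are carried mainly by immune cells of the mucosa, and epithelial cells can make them when exposed to interferon gamma.

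Class II genes are known to share a promoter layout in which an X box, bound by the RFX complex, lies upstream of a Y box, bound by NF-Y, and both serve the transactivator CIITA. The stretch that spans both boxes is shown for the members whose window held it, because these genes share this layout while, of their probes, H2-Ob was higher and H2-Aa lower in the congenic pools, H2-Eb1 overlapped between the strains and H2-Oa was blank. Sequences are from RefSeq (GRCm38.p6, C57BL/6J), 5′ to 3′ on the strand of the gene, with the X box core letters GCAAC and the Y box core letters ATTGG in capitals.
H2-Ob, chr17:34238808-34238860, plus strand: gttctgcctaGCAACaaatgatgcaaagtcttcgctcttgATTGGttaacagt
H2-Aa, chr17:34287859-34287914, minus strand: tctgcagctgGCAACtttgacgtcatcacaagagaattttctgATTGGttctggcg
H2-Eb1, chr17:34305766-34305820, plus strand: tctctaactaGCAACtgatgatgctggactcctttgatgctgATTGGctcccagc
H2-Oa, chr17:34092293-34092348, plus strand: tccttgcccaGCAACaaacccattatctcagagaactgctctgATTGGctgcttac
The windows ran from 250 bases before to 50 bases after a gene's start, and 5 of the class II members had at least 1 window. H2-Ab1 and H2-Ea had none and are named only. Cd74, which lies outside the complex, was not part of the search. The GCAAC began 87 bases before the start in H2-Ob, 81 in H2-Aa, 91 in H2-Eb1 and 76 in H2-Oa. Between GCAAC and ATTGG lay 25 bases in H2-Ob, 27 in H2-Eb1 and 28 in H2-Aa and H2-Oa. The same pair, GCAAC followed by ATTGG on the strand of the gene with 25 to 35 bases from one start to the other, occurred in 92 of 32851 windows of all genes (0.28%). Searched on both strands, GCAAC alone occurred in 35.2% of windows and ATTGG alone in 37.4%. Neither of the 2 windows of H2-DMa held the pair. The letters and their spacing were chosen with the members' sequences in view, the match is a description of letters in the C57BL/6J reference, and the congenic strain's own sequence was not analysed here.

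**Figure D1:**
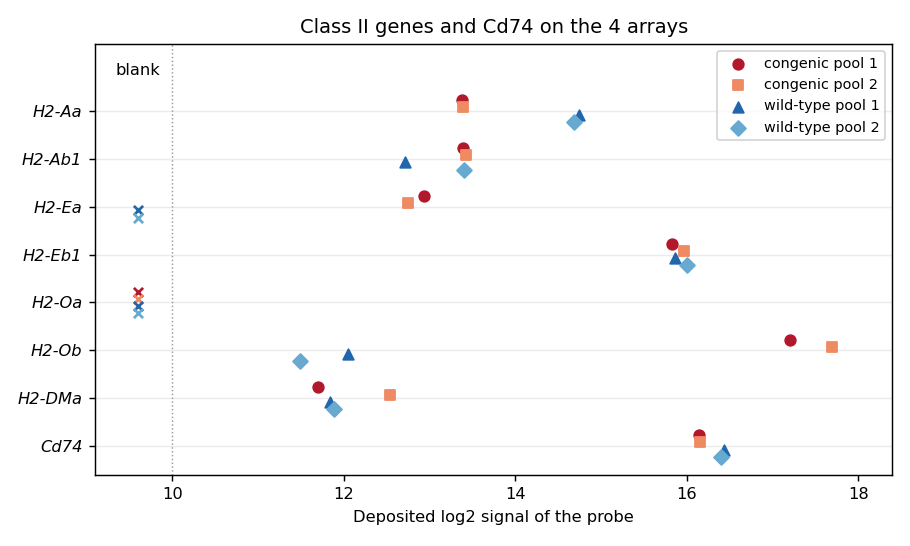
Each symbol is the deposited log2 signal (horizontal axis) of 1 probe on 1 array, with congenic pools in red and orange and wild-type pools in blues; crosses left of the dotted line mark blank cells and have no value. Only values within a row can be compared: H2-Ob lies at 17.21 and 17.70 in the congenic pools against 12.05 and 11.49 in wild type, H2-Aa lies lower in the congenic pools, and H2-Ea has values in the congenic pools only.

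The chains of the A molecule gave unlike readings. The H2-Aa probe (431279), for the alpha chain, read 13.38 and 13.39 in congenic pools 1 and 2 and 14.74 and 14.69 in wild-type pools 1 and 2. Both congenic pools were below both wild-type pools, with 1.30 between the nearest values, and pools of one strain differed by 0.01 and 0.04. The mean was 13.38 ± 0.00899 (SD, n = 2) in the congenic strain and 14.71 ± 0.0295 (SD, n = 2) in wild type, a difference of -1.33 ± 0.081 (SE), or 2.52-fold lower in the congenic strain. It lay between -1.35 and -1.31 when any 1 pool was left out.

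The H2-Ab1 probe (637912), for the beta chain of the same molecule, read 13.39 and 13.43 in the congenic pools and 12.72 and 13.40 in the wild-type pools. Wild-type pool 1 stood 0.67 below the nearest other array, wild-type pool 2 lay between the congenic values, and so the strains overlapped. The difference was 0.35 ± 0.22 (SE), 0.02 without wild-type pool 1 and 0.69 without wild-type pool 2. Wild-type pool 1 was the array that stood more than 0.5 from each other array, with those within 0.25 of one another, on 144 of the 13475 probes, and was the lower one on 118 of them. The same count was 64 for congenic pool 1, 123 for congenic pool 2 and 110 for wild-type pool 2. The alpha chain was thus lower in the congenic pools, while the beta chain's reading rested on 1 wild-type pool.

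For the E molecule, the alpha chain probe had values in the congenic pools alone. The H2-Ea probe (571419) read 12.94 and 12.75 in the congenic pools, a mean of 12.84 ± 0.131 (SD, n = 2), and was blank in both wild-type pools. Because the rule behind blanks is not given in the sources used here, a blank is not read as absence, and no fold is given. A value in both congenic pools with blanks in both wild-type pools occurred for 419 of 33012 probes (1.27%), and the reverse for 198 probes (0.6%). Blanks were far more frequent for dim probes. Among probes whose congenic mean lay below 10, 25.3% were blank in both wild-type pools. Among the 2645 probes with a congenic mean from 12 up to 13, where H2-Ea lies, 3 were, H2-Ea included (0.113%). Of the 419 probes, 5 had a congenic mean at or above that of H2-Ea. Of these 5, 2 had a gene symbol, H2-Ea itself and 2310057J18Rik of chromosome 10, which was named after its value was seen. Since H2-Ea was chosen with this contrast known and its own mean sets the last cut, nothing is read from these shares.

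The E molecule's beta chain gave level readings across the arrays. The H2-Eb1 probe (920968) read 15.83 and 15.97 in the congenic pools and 15.86 and 16.00 in the wild-type pools. The values interleaved, and the difference was -0.03 ± 0.088 (SE), smaller than the 0.14 between the pools of either strain. Its sign turned to 0.04 without congenic pool 1 or without wild-type pool 2.

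H2-Ob, the beta chain of H2-O, had the largest difference of any of the 13475 probes compared. Its probe (560648) read 17.21 and 17.70 in the congenic pools and 12.05 and 11.49 in the wild-type pools. The lowest congenic value lay 5.16 above the highest wild-type value, while the congenic pools were 0.49 apart and the wild-type pools 0.56. The means were 17.46 ± 0.345 and 11.77 ± 0.394 (SD, n = 2 each), a difference of 5.68 ± 0.23 (SE), or 51.3-fold. It lay between 5.40 and 5.96 when any 1 pool was left out. The probe of its partner H2-Oa (586949), the alpha chain of H2-O, was blank on all 4 arrays, so the chains of the molecule could not be compared. The probes' own sequences were not analysed here, and since class II genes resemble one another, whether the H2-Ob probe reads H2-Ob transcripts alone was not tested.

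The H2-DM alpha chain showed no separation of the strains. The H2-DMa probe (745275) read 11.70 and 12.54 in the congenic pools and 11.84 and 11.89 in the wild-type pools. Congenic pool 2 stood 0.66 above the nearest other array, while congenic pool 1 was the lowest of all. The difference was 0.25 ± 0.27 (SE), and it turned to -0.17 without congenic pool 2 and was 0.68 without congenic pool 1. The probe for the H2-DM beta chain is listed under both of its gene copies, so it names no single gene and was left out.

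The invariant chain was slightly lower in the congenic pools. The Cd74 probe (775978) read 16.14 and 16.16 in the congenic pools and 16.43 and 16.40 in the wild-type pools. The strains did not overlap, with 0.24 between the nearest values and at most 0.03 between pools of one strain. The difference was -0.27 ± 0.068 (SE), or 1.20-fold lower, and lay between -0.28 and -0.25 when any 1 pool was left out. In bulk tissue, fewer cells that make a transcript and less of it per cell cannot be told apart, here and in every value above. Whether bases that differ between the strains lie under a probe and change its reading was not tested for any member.

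**Figure D2:**
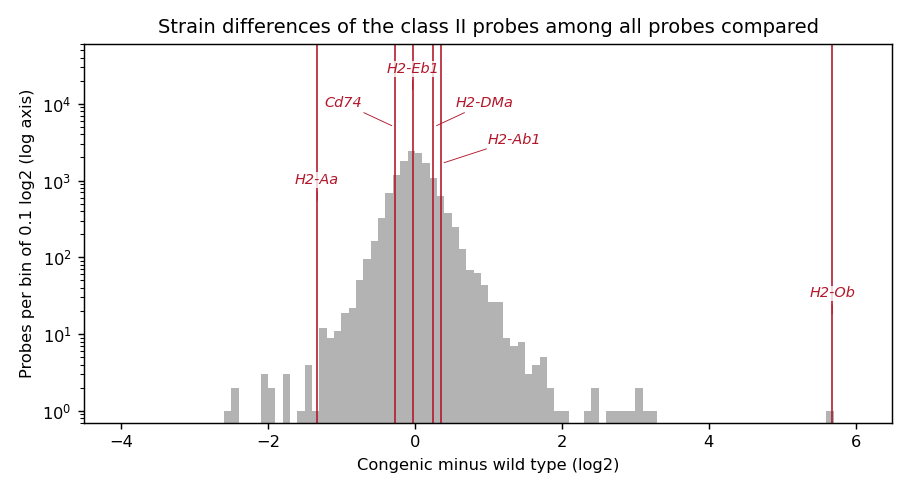
Grey bars count the 13475 probes compared by their congenic minus wild-type difference (log2, bins of 0.1, logarithmic vertical axis), and red lines mark the 6 class II and Cd74 probes with a value on all arrays. H2-Ob, at 5.68, stands beyond every other probe and H2-Aa, at -1.33, is in the lower tail, while H2-Ab1, H2-Eb1, H2-DMa and Cd74 lie in the bulk.

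In size of difference among all 13475 probes, H2-Ob ranked 1, H2-Aa 58, H2-Ab1 2268, Cd74 3724, H2-DMa 3963 and H2-Eb1 11899. The limma fit across all probes called 64 of the 13475 at an adjusted p under 0.05 (0.475%), 39 higher (0.289%) and 25 lower (0.186%) in the congenic strain. Of the 6 members measured on all arrays, it called 1 higher, H2-Ob, and 1 lower, H2-Aa, and without congenic pool 1, where the H2-Aa difference was still -1.33, it no longer called H2-Aa. The strains' pools did not overlap for 3 of these 6 (H2-Ob, H2-Aa and Cd74), against 49.4% of all probes compared. Of these 3, 1 was higher in the congenic strain, as for 23.4% of all probes, and 2 were lower, as for 26.1%. Since the members were chosen with this contrast known, nothing is read from these counts.

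The members' profiles over the 4 arrays were also set against those of the 7907 named probes, as the Euclidean distance between values centred on each probe's mean. No profile came near that of H2-Ob: the nearest were the pancreatic elastases Cela2a, at 2.53, and Cela3b, at 2.64, which differed by 3.23 and 3.09 between the strains. The distance is not scaled to size, so for the largest difference it favours the next largest positive ones and cannot show a shared source. H2-Aa was nearest to Enpp5 (0.0952) and Mtch1 (0.1), both genes of chromosome 17, with differences of -1.40 and -1.23. For H2-Aa too, the distance favours probes with negative differences of like size. The share of chromosome 17 genes among such probes was not counted. Cd74, of chromosome 18, was nearest to Irf1 (0.0116), of chromosome 11, which encodes an interferon-induced transcription factor. The next was Ier3 (0.0221), of chromosome 17. H2-Ab1 was nearest to Rabgap1 (0.0493) and Nrd1 (0.0503), H2-Eb1 to Phgdh (0.0199) and 2310034C09Rik (0.0202), and H2-DMa to Foxk1 (0.0465) and Lhx3 (0.073). None of the genes nearest to these members lies on chromosome 17. With 4 arrays such a likeness is easily met, and it is given as a description.

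**Figure D3:**
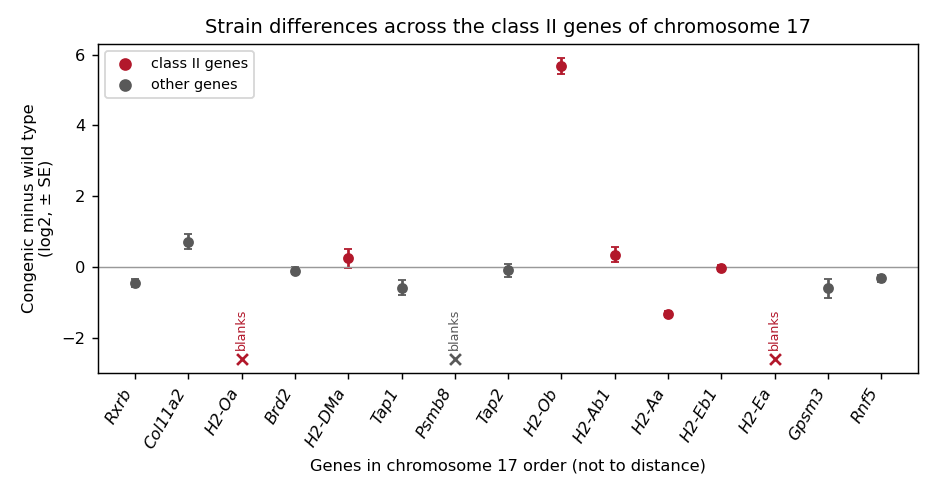
Points are congenic minus wild-type differences (log2, bars are the limma SE, n = 2 pools per strain) for the class II genes in red and their measured neighbours in grey, in the order of the genes on chromosome 17 and not to distance; crosses mark genes with blanks and have no value. H2-Ob, at 5.68, and H2-Aa, at -1.33, stand on either side of H2-Ab1, at 0.35.

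Along chromosome 17 the class II genes lie in the order H2-Oa, H2-DMa, H2-Ob, H2-Ab1, H2-Aa, H2-Eb1 and H2-Ea, as annotated in GRCm38.p6, which was used for gene order because no build is given for the array. Among the probed genes, H2-Ob, H2-Ab1, H2-Aa, H2-Eb1 and H2-Ea were consecutive, so the probe with the largest positive difference was separated from H2-Aa by H2-Ab1 alone. The 3 other genes measured on all arrays between the members gave no call in limma at an adjusted p of 0.05, and 1 had an unadjusted p under 0.05. That gene was Tap1, which encodes a subunit of the peptide transporter of class I presentation, at 11.18 and 10.80 in the congenic pools and 11.40 and 11.74 in wild type (-0.58 ± 0.22, limma adjusted p = 0.2913). Its partner subunit Tap2 differed by -0.09 ± 0.19 (limma adjusted p = 0.8341), and the chromatin reader Brd2 by -0.10 ± 0.10 (limma adjusted p = 0.6545). Psmb8, an immunoproteasome subunit, had a value in wild-type pool 2 alone. The nearest measured genes before the class II genes were Rxrb (-0.46 ± 0.11, limma adjusted p = 0.1827) and Col11a2 (0.72 ± 0.20, limma adjusted p = 0.215). Those after them were Gpsm3 (-0.60 ± 0.27, limma adjusted p = 0.3509) and Rnf5 (-0.32 ± 0.10, limma adjusted p = 0.2526). All 4 had pools that did not overlap between the strains, as did 49.4% of all probes, and none passed.

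The genes that switch class II transcription on either had blanks or did not pass. Of 21 listed regulators, 18 had a probe of their own, 9 were measured on all arrays and 6 were blank on every array. Ciita, the master transactivator, was blank on all 4 arrays, as were the RFX subunit genes Rfx5 and Rfxap, the NF-Y subunit gene Nfya, and Ifng. Of the 9 measured, limma called 0, and the unadjusted p was under 0.05 for 1. The median difference was -0.116, with 33.3% of differences positive, against a median of -0.002 and 49.6% positive over all probes. Jak1, a kinase that signals from the interferon receptors, read 11.79 and 11.97 in the congenic pools and 11.14 and 11.29 in wild type (0.66 ± 0.16, limma adjusted p = 0.1827). Irf1 differed by -0.27 ± 0.11 (limma adjusted p = 0.3181), Nfyc, another NF-Y subunit, by -0.18 ± 0.082 (limma adjusted p = 0.3459) and Irf4 by -0.25 ± 0.13 (limma adjusted p = 0.3943). The interferon gamma receptor chains Ifngr1 and Ifngr2, chosen after their values were seen, differed by -0.14 ± 0.070 and -0.12 ± 0.10. Spi1, which encodes the myeloid transcription factor PU.1, had values of 9.98 and 10.11 in the congenic pools and blanks in wild type, as did 5.95% of all probes with a congenic mean from 10 up to 11. The reverse was seen for 1 of the 3 probes of Creb1 (918911), with values of 9.92 and 9.76 in wild type and blanks in the congenic pools, as for 12.6% of all probes with a wild-type mean below 10.

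The enzymes and lysosomal proteins that prepare peptides for class II molecules were well measured, and none passed. Of 24 listed genes of antigen processing and class II turnover, 17 had a probe of their own and 16 were measured on all arrays. Limma called 0 of these 16, the unadjusted p was under 0.05 for 2, and the median difference was -0.039 with 37.5% positive. The lysosomal proteases Ctsl (-0.22 ± 0.078, limma adjusted p = 0.2758) and Ctsd (-0.18 ± 0.071, limma adjusted p = 0.2986) were the pair under that level. Cd83, which protects surface class II molecules from turnover, differed by -0.60 ± 0.28 (limma adjusted p = 0.3541). Ifi30, the lysosomal thiol reductase that opens disulfide bonds of antigens, differed by 0.17 ± 0.083 (limma adjusted p = 0.3849). Ctss, the protease that trims the invariant chain, was chosen after its values were seen and read 13.66 and 13.61 in the congenic pools and 13.55 and 13.86 in wild type, and differed by -0.07 ± 0.12.

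Most partners of class II molecules at the contact with T cells had blanks. Of 18 listed genes of recognition and costimulation, all had a probe, 3 were measured on all arrays, 9 were blank on some arrays and 6 on all. Cd4, whose product binds class II molecules directly, had values in congenic pool 1 (9.26) and wild-type pool 1 (8.57) alone. Limma called 0 of the 3 measured genes, and the unadjusted p was under 0.05 for 0. These were the costimulatory ligand Cd80 (0.24 ± 0.18), the adhesion receptor Cd44 (0.30 ± 0.23) and Mif (-0.15 ± 0.075), a cytokine whose receptor complex holds the CD74 protein.

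Markers of the cells that carry class II molecules were set beside the members. The tissue itself was well marked: 8 of 11 listed stomach genes had a probe, all 8 were measured on every array, and the mean log2 level over them lay between 19.35 and 19.60. Limma called 0 of them, with an unadjusted p under 0.05 for 3, and by p they were led by Gast (-0.59 ± 0.099, limma adjusted p = 0.113), Ghrl (-0.43 ± 0.093), Atp4a (-0.21 ± 0.079) and Cblif (0.64 ± 0.33). Gkn2, named after its values were seen, read 21.25 on all 4 arrays, the highest value of the data. Its level reading may therefore be a ceiling of the scale, at which no difference could show. For macrophages, 11 of 18 listed markers were measured, 0 passed in limma with 0 at an unadjusted p under 0.05, and their mean level lay at 12.65 and 12.64 in the congenic pools and 12.66 and 12.71 in wild type. C1qa, a complement component of tissue macrophages, read 14.79 and 14.72 against 14.95 and 14.90 (-0.17 ± 0.076, limma adjusted p = 0.3501). Cd163 (0.15 ± 0.12), Mertk (-0.27 ± 0.23) and C1qc (-0.09 ± 0.083) were the next by p. For dendritic cells only Cd1d1 of 12 listed markers was measured on all arrays (-0.29 ± 0.25), and Clec9a, Xcr1, Cd209a and Itgae were blank on every array.

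B cells, in which H2-O is mainly made, had few readable markers. Of 16 listed markers of B and plasma cells, 12 had a probe, 7 were blank on every array, among them Ms4a1, Cd79b, Cd22, Blk and Pax5, and 3 were measured on all arrays. Those 3 are Jchain (0.12 ± 0.10), Sdc1 (-0.27 ± 0.11) and Xbp1 (0.13 ± 0.13). Limma called 0 of them, the unadjusted p was under 0.05 for 0, and gastric epithelial cells also make Sdc1 and Xbp1. Their mean level was 14.99 in both congenic pools and 15.05 and 14.95 in wild type. Cd79a, a chain of the B cell receptor complex, read 10.64 and 10.32 in the congenic pools and was blank in wild type, again as 5.95% of all probes at that level, and Cr2 had a value in congenic pool 1 alone (9.73). The part of B cells in the H2-Ob and H2-Ea readings was not tested. Genes named for their blanks were chosen after their values were seen.

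Among lymphocyte and general leukocyte markers a single gene passed. Cd5, a T cell surface protein, read 16.53 and 16.66 in the congenic pools and 17.95 and 17.73 in wild type, and fell by 1.25 ± 0.10 (limma adjusted p = 0.00907). It did not pass without congenic pool 1 (limma adjusted p = 0.1022) or without congenic pool 2 (limma adjusted p = 0.07014). Of 12 listed T and natural killer cell markers, 3 were measured on all arrays, and most T cell genes had few readable values: Thy1 was blank on every array, Cd3d, Cd3e and Cd3g each had a value on 1 congenic array, and Cd2 differed by -0.65 ± 0.25 (limma adjusted p = 0.3001). Nkg7 differed by 0.43 ± 0.23. The Cd5 probe read far above that of Cd2, which lay at 11.63 and 11.05 in the congenic pools and 11.77 and 12.19 in wild type. Whether the Cd5 probe reads Cd5 transcripts of T cells alone was not tested. Of 8 pan-leukocyte markers 4 were measured. Of these, Rac2 (-0.45 ± 0.17, limma adjusted p = 0.287) and Cd52 (-0.32 ± 0.12, limma adjusted p = 0.2913) had unadjusted p-values under 0.05, Arhgdib (0.05 ± 0.12) and Ptpn6 (-0.03 ± 0.11) did not, and Ptprc was blank on every array. Over the 5 leukocyte lists, 22 of 66 listed markers were measured, 0 were called higher and 1 lower, against 0.475% of all probes. Their median difference was -0.061 with 31.8% positive, and their mean level was 13.00 and 12.98 in the congenic pools and 13.14 and 13.10 in wild type. That mean includes Cd5 and Cd2. Of the members, Cd74 (-0.27) and H2-Aa (-1.33) were lower in the same pools and H2-Eb1 was level (-0.03). H2-Ab1 (0.35), H2-DMa (0.25) and H2-Ob (5.68) were not lower. The part of leukocyte number in the members' readings was not tested.

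**Figure D4:**
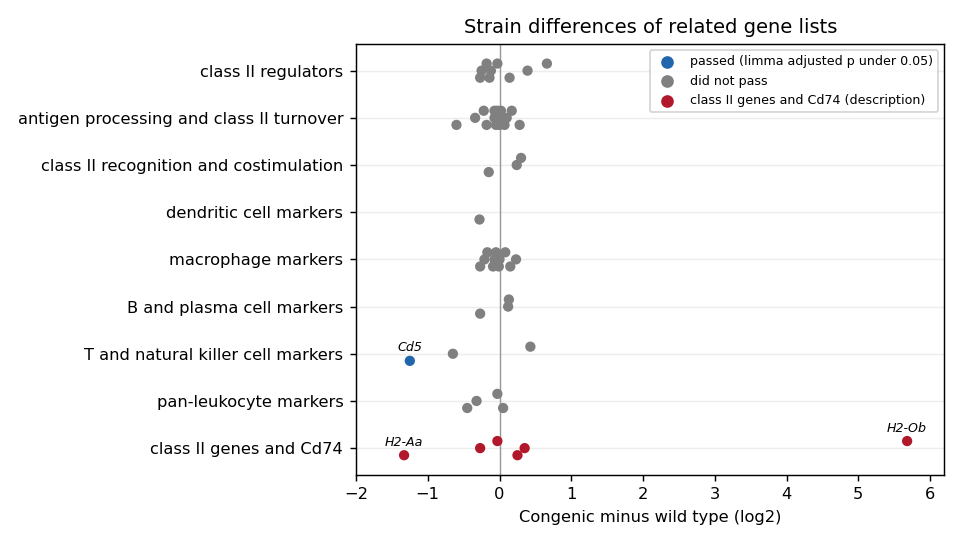
Each point is the congenic minus wild-type difference (log2) of 1 gene measured on all 4 arrays, by list; blue passed limma at an adjusted p under 0.05, grey did not, and red marks the class II genes and Cd74, whose differences are shown as descriptions. Apart from Cd5, at -1.25, the listed genes lie between -0.65 and 0.66, while H2-Ob is at 5.68 and H2-Aa at -1.33.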

How the data were processed

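The arrays took cRNA made from 1 microgram of TRIzol-extracted stomach RNA and labelled with digoxigenin (Applied Biosystems RT-IVT chemistry, chemiluminescent detection), per the labels' protocols. The deposited table holds 1 signal per probe and array, on a scale read here as log2 from its range (6.73 to 21.2). How the authors normalized it, its log base and when a cell was left blank: not given in the sources used here. Every fold rests on that base.

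Of 33012 probes, 14411 had 1 gene symbol in the platform annotation, 247 several and 18354 none; only the first were named. The reference annotation (GRCm38.p6) matched 14402 and changed no symbol. Probes with a value numbered 16954 and 16871 in congenic pools 1 and 2, and fewer, 16320 and 16326, in wild-type pools 1 and 2. No further normalization was applied: medians over the 13475 probes compared lay between 12.819 and 12.824. The number of arrays limits the precision.

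The strain comparison used lmFit and eBayes of limma 3.58.1 (R 4.3.3) with a variance trend on signal, 3.97 prior beside 2 residual degrees of freedom, two-sided p-values and Benjamini-Hochberg adjustment over all 13475 probes. The fit was tested on simulated data. Several probes of a gene were represented by the one with the highest mean. Named were the members, listed genes that passed, up to 4 per list by p, 2 nearest profiles per member and the measured neighbours; genes named beyond this were chosen after their values were seen, as the text says. Members and lists were chosen with earlier results of these data known. Alternatives were quantile normalization, median centring, a block for the pool number, no variance trend, no dim probes, 1 blank allowed per probe, and leaving out each pool. Figures were drawn with matplotlib 3.10.9.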

Additional observations from a re-analysis of the deposited data

How the results depend on the processing

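The count of 64 probes called in limma over all probes was 35 with the replicate number as a block, 20 without the variance trend, and between 15 and 168 when 1 pool was left out (15 and 27 on leaving out congenic pools 1 and 2, 61 and 168 on leaving out wild-type pools 1 and 2). Under the other alternatives it lay between 51 and 68. Pool numbers were not taken to pair the samples: deviations of same-numbered pools correlated at -0.064 across probes. The counts of called regulators, processing genes and recognition genes were 0 under every alternative run. The count over the 5 leukocyte lists, 1, was 0 without the variance trend and between 0 and 1 when 1 pool was left out; its call, Cd5, had a limma adjusted p of 0.1203 without the variance trend and 0.04235 with the block. A fit limited to probes at or above the median signal gave no value for H2-DMa, and allowing 1 blank did not bring in H2-Ea. On leaving out 1 pool, the differences of H2-Ab1 lay between 0.02 and 0.69, of H2-DMa between -0.17 and 0.68 and of H2-Eb1 between -0.10 and 0.04. Signal over background is unknown here, so what blanks hide cannot be sized.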
